A study of Mus musculus with 6 samples.

Results

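The genes described here are 10 genes of the brake on the cell cycle and of the p53 pathway. They were chosen by name, with earlier results of these data known. The list holds the cyclin-dependent kinase inhibitors Cdkn1a, Cdkn1b, Cdkn1c, Cdkn2a, Cdkn2b, Cdkn2c and Cdkn2d, together with Trp53, Mdm2 and Ccng1. All 10 were listed among the 34745 genes of the deposited table, and 9 of them were among the 10279 genes tested, those averaging 1 FPKM or more across all 6 libraries. Cdkn1c was below that level. The 9 tested genes were at or above 1 FPKM in all 6 libraries, so none of them was tested only because it was high in 1 stage. FPKM is a fragment count divided by gene length and library total, so levels of different genes can be set side by side on this scale.

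Lung mesenchymal stromal cells (LMSCs) were grown from MMTV-PyMT mice and their RNA was sequenced. In these mice the MMTV promoter drives the polyoma middle T antigen in mammary epithelium and the mammary tumors that arise spread to the lung. The stages were A-LMSCs (adenoma, labelled age 6 to 7 weeks), PM-LMSCs (pre-metastatic, 9 to 10 weeks) and M-LMSCs (metastatic, 13 to 14 weeks), with 2 libraries each, and the study's methods give slightly older mice for the first and second stage. The third mouse per stage that the study used was not analysed here, and no library of mice without the transgene was analysed here. All libraries share the transgene, the strain (labelled MMTV-PyMT, on the FVB background per the study's methods), a culture of adherent lung cells depleted of CD45+ cells with magnetic beads, and passage 3, so stage goes together with the age of the mouse, and the values are those of cells that had grown in dishes. The study describes separate mice for each stage, but the labels do not tie the libraries to mice, and the p-values measure only the spread between these libraries, which may be technical.

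Cyclin-dependent kinases (CDKs) drive a cell through its division cycle when a cyclin binds them. Inhibitors of the Cip/Kip family (p21 from Cdkn1a, p27 from Cdkn1b, p57 from Cdkn1c) bind complexes of cyclins and CDKs, whereas those of the INK4 family (p16 from Cdkn2a, p15 from Cdkn2b, p18 from Cdkn2c, p19Ink4d from Cdkn2d) bind CDK4 and CDK6 and so keep the retinoblastoma protein active. Cdkn2a also encodes Arf, which restrains MDM2, the ubiquitin ligase that leads to degradation of p53. The transcription factor p53 (Trp53) is controlled mainly as a protein, and Cdkn1a, Mdm2 and Ccng1 (cyclin G1) are among its classic target genes. In cultured fibroblasts and stromal cells, Cdkn2a and Cdkn2b are known to accumulate with passage and in senescence.

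The upstream sequence of Cdkn1a and Ccng1 is shown because both are p53 target genes with a match to the p53 element near a RefSeq start, with 25 bases on each side of it. The capitals mark 2 adjoining p53 half-sites with 1 mismatch to the p53 consensus. The Cdkn1a stretch lies at chr17:29090903-29090972 on the plus strand, and the Ccng1 stretch at chr11:40755437-40755506 on the minus strand, both on GRCm38.p6.
Cdkn1a: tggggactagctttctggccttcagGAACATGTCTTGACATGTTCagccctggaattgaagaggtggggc
Ccng1: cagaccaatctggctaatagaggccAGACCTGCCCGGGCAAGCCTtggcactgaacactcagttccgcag

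Each motif was searched on both strands in windows from 250 bases before to 50 bases after a RefSeq start, which 9 of the 10 genes had. A pair of adjoining half-sites was in 22 of 32544 such windows of all genes (0.0676%). Up to 1 mismatch was allowed in the pair, but not at the fixed C and G of each half-site. The Cdkn1a match began 51 bases before the first of its 2 RefSeq starts, which lies 2790 bases upstream of the other, and the Ccng1 match began 195 bases before its start. A single half-site without mismatch, held by 8.36% of all windows, was found in the windows of Cdkn1a, Ccng1, Cdkn2d, Trp53 and Mdm2, where those of Cdkn1a and Ccng1 are part of the pairs shown, with 1 more in Cdkn1a. The E2F motif, searched as TTTCCCGC, TTTCGCGC, TTTGCCGC or TTTGGCGC and held by 2.28% of windows, was in the Arf window of Cdkn2a and in no other window of these genes. A narrower search run first, with TTTCGCGC and TTTGGCGC alone (0.82% of windows), found it in none, so this match depends on the spellings searched, and the wider set was taken after sequences had been seen. Such matches describe letters and not binding.

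The upstream sequences of Cdkn2a and Cdkn2b are shown because the locus has 3 separate starts, 2 of which feed the single Cdkn2a value. Capitals mark the E2F motif. Each stretch is the 100 bases before a start, read on the minus strand (GRCm38.p6), at chr4:89294620-89294719 for the Arf start, chr4:89282193-89282292 for the p16 start and chr4:89311033-89311132 for Cdkn2b.
Cdkn2a, Arf start: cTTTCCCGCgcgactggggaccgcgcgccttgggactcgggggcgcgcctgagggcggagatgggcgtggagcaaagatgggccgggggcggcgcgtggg
Cdkn2a, p16 start: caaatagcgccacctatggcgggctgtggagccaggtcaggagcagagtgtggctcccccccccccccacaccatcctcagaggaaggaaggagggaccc
Cdkn2b: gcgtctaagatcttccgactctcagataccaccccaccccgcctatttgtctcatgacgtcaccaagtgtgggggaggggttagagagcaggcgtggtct

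The libraries had estimated depths of 14.9 to 21 mega-fragments, from the spacing of low values, and the 2 libraries of a stage correlated at 0.992 (A), 0.985 (PM) and 0.977 (M) on the log2(FPKM + 1) scale, against 0.966 to 0.987 between stages. The mesenchymal label was checked against 15 marker genes, all of which were tested, with a summed level of 3258 to 4617 FPKM. The 14 haematopoietic markers summed to 129 to 137 FPKM at stage A, 79.8 to 173 at stage PM and 300 to 412 at stage M, with 7 of 14 tested Ly6g at 0 in all libraries, and Ptprc (CD45, the antigen of the depletion) at most 0.0987 FPKM. The 9 mesothelial markers summed to 126 to 185 FPKM at stage A, 308 to 428 at stage PM and 209 to 512 at stage M. The 14 epithelial markers summed to between 17.7 and 33.1 FPKM in all libraries, but of the 4 tested, 3 were higher and 1 lower at each later stage. Of those too low to test, Epcam was 0 FPKM in all A-LMSC and PM-LMSC libraries and 0.326 and 0.473 in M-LMSCs. Cdh1 was 0 and 0.0104 FPKM at stage A against 0.231 and 0.394 at stage M, and Krt14 0.136 and 0.0650 against 0.722 and 1.47. Cldn3, Cldn4, Esrp1 and Grhl2 were also above both A-LMSC libraries in both M-LMSC libraries, whereas Krt5, Sftpc and Scgb1a1 overlapped. In M-LMSCs against A-LMSCs the keratins Krt8 (log2 fold change 1.42) and Krt18 (1.21) were called higher by limma (adjusted p under 0.05) only with the replicate number as a block. Krt19 (-1.53), which is also among the mesothelial markers, was called lower with and without the block. The 7 smooth muscle and pericyte markers summed to 9650 to 9676 FPKM in A-LMSCs and 9500 to 10048 in PM-LMSCs. They summed to 8577 to 8578 FPKM in M-LMSCs, and exceeded the mesenchymal sum in every library. Most of this sum came from Acta2 (4986 to 6311 FPKM) and Tagln (2761 to 3569 FPKM). The next highest of these markers, Cnn1, was at most 408 FPKM, Myh11 at most 50.1 and Rgs5 at most 0.286. Of the 6 tested, limma called Cspg4 lower in M-LMSCs against A-LMSCs, only with the block. The 8 endothelial markers summed to 1.74 to 1.77 FPKM at stages A and PM and 2.74 to 3.01 at stage M. Kdr, the 1 tested, was called higher in M-LMSCs only with the block. In bulk libraries, fewer cells of a type and less RNA per cell cannot be told apart, and the part of these cell types in the results below was not tested.

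By mean level over the 6 libraries, Cdkn1a was first, at 191 FPKM, and Ccng1 next at 129.8 FPKM. Their ranges overlapped (159.7 to 215 and 88.2 to 176 FPKM). Cdkn2b (52.9 FPKM) and Cdkn2a (45.9 FPKM) followed with overlapping ranges, then Cdkn2d (17.5 FPKM), Mdm2 (16.2 FPKM) and Trp53 (15.3 FPKM), whose ranges also overlapped. Cdkn2c (8.56 FPKM) overlapped Mdm2 at its upper end, at 11.3 FPKM against a lowest Mdm2 value of 8.65 FPKM. Cdkn1b (4.23 FPKM, highest 6.11 FPKM) lay below every Cdkn2c value, and Cdkn1c (0.421 FPKM) below every Cdkn1b value. Cdkn1a made up 58.0% to 61.3% of the summed FPKM of the 7 inhibitor genes in every library.

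**Figure D1:**
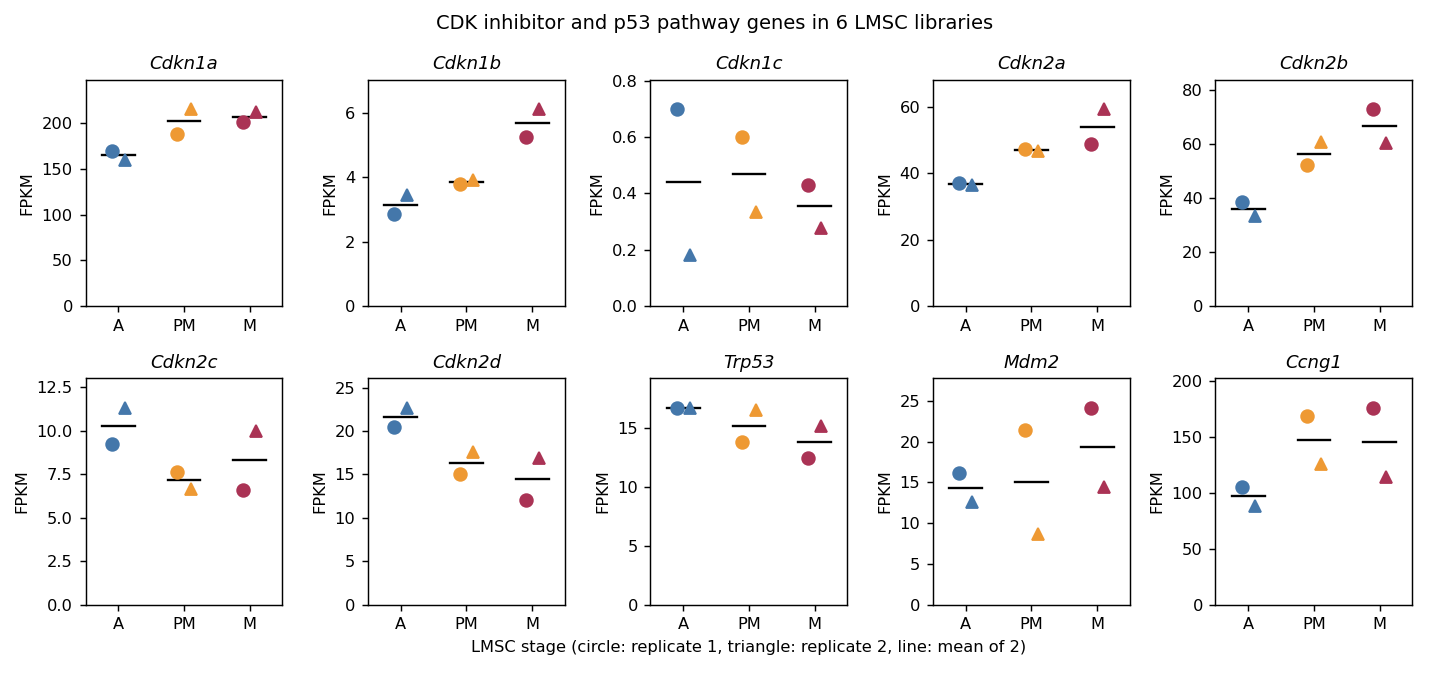
FPKM of the 10 genes in each library, 1 panel per gene with its own linear axis from 0, against stage (A, PM, M). Circles are replicate 1, triangles replicate 2 and lines the mean of 2. Cdkn2b lies at 33.3 to 38.6 FPKM at stage A and 60.3 to 72.7 at stage M without overlap, whereas the 2 Mdm2 values of PM-LMSCs lie far apart.

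The comparisons asked whether the expression of these genes differed between the stages of tumor progression. Without a term for replicate number, limma called 0 of the 9 tested genes at an adjusted p under 0.05 in each comparison, while it called 0.0389% of all tested genes for PM-LMSCs against A-LMSCs, 0.0681% for M-LMSCs against A-LMSCs, 0.0292% for M-LMSCs against PM-LMSCs and 0.126% for the mean of both later stages against A-LMSCs. At an unadjusted p under 0.05, the counts were 4 of 9 for PM-LMSCs (background 6.53%), 5 of 9 for M-LMSCs (background 14.6%), 1 of 9 for M-LMSCs against PM-LMSCs (background 8.94%) and 6 of 9 for both later stages (background 11.2%). Libraries with the same replicate number deviated from their stage means together, and with the replicate number as a block limma called Cdkn1b, Cdkn2b and Cdkn2d in M-LMSCs against A-LMSCs (3 of 9, background 3.92%) and Cdkn2b and Ccng1 in both later stages against A-LMSCs (2 of 9, background 2.05%). It called 0 of 9 for PM-LMSCs against A-LMSCs (background 0.292%, with 6 of 9 at an unadjusted p under 0.05 against 13.8%) and 0 of 9 for M-LMSCs against PM-LMSCs (background 0.418%, with 1 of 9 at an unadjusted p under 0.05 against 16%).

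The stages could also be compared by overlap alone. In 7 of the 9 tested genes, all 4 later-stage libraries lay on one side of both A-LMSC libraries, against 21.4% of all tested genes. Cdkn1a, Cdkn1b, Cdkn2a, Cdkn2b and Ccng1 lay above (5 of 9, background 10.7%) and Cdkn2d and Trp53 below (2 of 9, background 10.7%). Cdkn2c and Mdm2 did not separate in this way. Both comparisons with A-LMSCs use the same A-LMSC libraries, so the later stages are not independent of each other in these counts. Because the genes were chosen with earlier results of these data known, the counts beside their backgrounds are descriptions and not tests of the set.

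Among the INK4 genes, Cdkn2b (p15, on chromosome 4 at 89306299 to 89311039, minus strand, GRCm38) was 38.6 and 33.3 FPKM at stage A, 52.0 and 60.6 at stage PM and 72.7 and 60.3 at stage M. Every later library was above both A-LMSC libraries, and PM-LMSCs and M-LMSCs overlapped. The means were 36.0 ± 3.69 FPKM (SD, n = 2) in A-LMSCs, 56.3 ± 6.09 FPKM in PM-LMSCs and 66.5 ± 8.81 FPKM in M-LMSCs, a ratio of means of 1.57 for PM-LMSCs and 1.85 for M-LMSCs over A-LMSCs. For M-LMSCs the log2 fold change, on the log2(FPKM + 1) scale as throughout, was 0.87 (95% interval 0.52 to 1.22), with a limma adjusted p of 0.0960. With the block the limma adjusted p was 0.0253, and over 13 settings it ran from there to 0.622. The mean of both later stages differed from A-LMSCs by a log2 fold change of 0.75, with a limma adjusted p of 0.131 without the block and 0.0363 with it (highest over 12 settings 0.977).

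Cdkn2a (p16 and Arf, chromosome 4, 89274471 to 89294653, minus strand), 11645 bases from Cdkn2b, was 37.0 and 36.5 FPKM at stage A, 47.3 and 46.8 at stage PM and 48.8 and 59.2 at stage M. Its 3 stages did not overlap, and the higher M-LMSC value came from replicate 2, whereas for Cdkn2b it came from replicate 1. The log2 fold change was 0.35 (SE 0.12) in PM-LMSCs and 0.54 (SE 0.12) in M-LMSCs against A-LMSCs, and for M-LMSCs the limma adjusted p was 0.138 without the block and 0.0531 with it. The 2 main transcripts share 575 exon bases, of which 317 are coding in both and read in another frame, and have 277 (p16) and 320 (Arf) bases of their own. The 1 FPKM value per library therefore cannot be divided between p16 and Arf. The neighbour on the other side of Cdkn2a, Mtap (a methionine salvage enzyme), was 32.05 and 31.4 FPKM at stage A, 37.0 and 29.5 at stage PM and 35.5 and 33.3 at stage M, so its A-LMSC values lay within the range of the PM-LMSC values and below both M-LMSC values.

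The other INK4 genes were lower on average in the later stages. Cdkn2d (p19Ink4d, chromosome 9, 21288410 to 21291407, minus strand) was 20.5 and 22.7 FPKM at stage A, 15.1 and 17.6 at stage PM and 12.0 and 16.8 at stage M, so all 4 later libraries were below both A-LMSC libraries. Its log2 fold change at stage M was -0.56 (95% interval -0.98 to -0.15), with a limma adjusted p of 0.229 without the block and 0.0478 with it (up to 0.929 over 13 settings). Cdkn2c (p18, chromosome 4, 109660876 to 109667189, minus strand) was 9.22 and 11.3 FPKM at stage A, 7.61 and 6.66 at stage PM and 6.61 and 9.98 at stage M. Both PM-LMSC libraries of Cdkn2c were below both A-LMSC libraries, with a log2 fold change of -0.46 (95% interval -0.94 to 0.01) and a limma adjusted p of 0.774 (0.290 with the block). The M-LMSC libraries reached into the A-LMSC range, with a log2 fold change of -0.29 and a limma adjusted p of 0.515. Cdkn2a and Cdkn2b together held 67.3% to 71.8% of the summed INK4 FPKM in A-LMSCs and 81.4% to 86.7% in the later libraries. The Cdkn2a value in these shares includes Arf.

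Summed over the 4 INK4 genes, the level was 105.3 and 103.8 FPKM at stage A, 121.96 and 131.7 at stage PM and 140.2 and 146 at stage M. The kinases they bind, Cdk4 and Cdk6, summed to 57.5 and 61.7 FPKM at stage A, 52.0 and 56.9 at stage PM and 44.3 and 56.7 at stage M, nearly all of it Cdk4. The ratio of the INK4 sum to the kinase sum was 1.83 and 1.68 in A-LMSCs, 2.35 and 2.31 in PM-LMSCs and 3.16 and 2.58 in M-LMSCs. Its stages did not overlap. This ratio was formed after the values were seen and is given without a test. The INK4 sum and the ratio take the whole Cdkn2a value, Arf included, so neither is a level of INK4 transcripts alone.

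**Figure D2:**
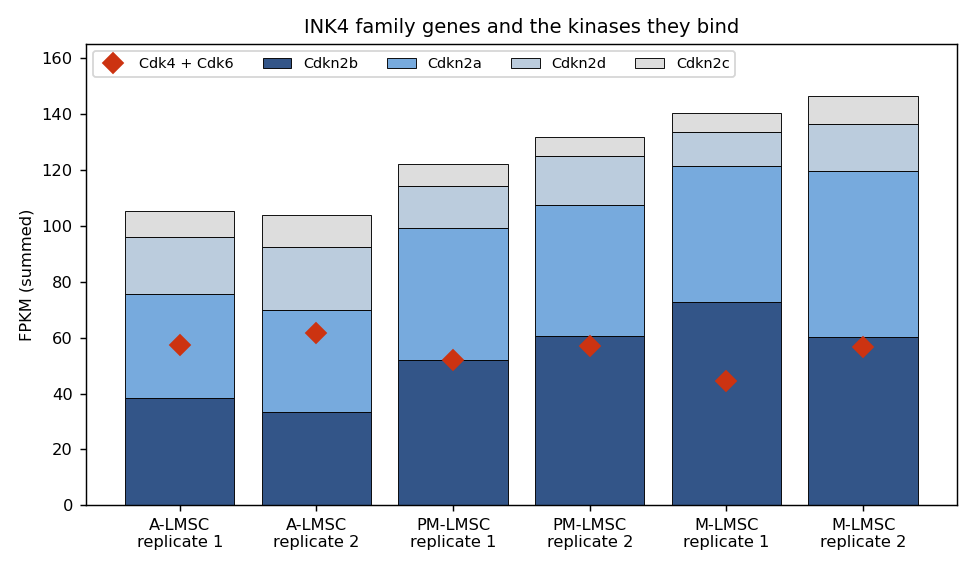
Stacked bars give the FPKM of Cdkn2b, Cdkn2a, Cdkn2d and Cdkn2c in each of the 6 libraries on a linear axis from 0, and diamonds the sum of Cdk4 and Cdk6. The INK4 sum is 105.3 and 103.8 FPKM at stage A against 140.2 and 146 at stage M, whereas the diamonds lie between 44.3 and 61.7 FPKM. The Cdkn2a part of each bar, and so the sum, includes Arf.

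Of the Cip/Kip genes, Cdkn1a (p21, chromosome 17, 29090976 to 29100727, plus strand) was 170.3 and 159.7 FPKM at stage A, 189 and 215 at stage PM and 201.5 and 213 at stage M. All later libraries were above both A-LMSC libraries, and the later stages overlapped each other. The ratio of means was 1.23 for PM-LMSCs and 1.26 for M-LMSCs over A-LMSCs, and the log2 fold changes of 0.29 (95% interval 0.01 to 0.57) and 0.33 (0.05 to 0.61) had limma adjusted p of 0.748 and 0.284. With the block the limma adjusted p were 0.311 and 0.139, the lowest of 13 settings each. Between 10033 and 12727 estimated fragments per library lay behind these values, so counting error is small beside the difference between libraries. The annotation places 273 exon bases of Cdkn1a opposite AC167363.2, an unclassified transcript, and reads of the pair cannot be told apart without strand.

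Cdkn1b (p27, chromosome 6, 134920401 to 134925513, plus strand), whose protein is controlled largely by degradation, was low at 2.86 and 3.44 FPKM at stage A, 3.79 and 3.92 at stage PM and 5.24 and 6.11 at stage M. The 3 stages did not overlap. The M-LMSC mean of 5.67 ± 0.613 FPKM (SD, n = 2) was 1.80 times that of A-LMSCs (3.15 ± 0.413 FPKM) and 1.47 times that of PM-LMSCs (3.86 ± 0.0888 FPKM). Against A-LMSCs the log2 fold change was 0.68 (SE 0.13), with a limma adjusted p of 0.114 without the block and 0.0250 with it (up to 0.573 over 13 settings). Against PM-LMSCs it was 0.46 (SE 0.13), with a limma adjusted p of 0.411, and it was the 1 member with an unadjusted p under 0.05 there. Skp2, part of the ligase that marks p27 for degradation, was 1.16 and 1.28 FPKM at stage A against 1.13 and 0.929 at stage M, with a log2 fold change of -0.13 and a limma adjusted p of 0.623.

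Cdkn1c (p57, chromosome 7, 143458339 to 143461050, minus strand), an imprinted gene, was near the detection limit at 0.699 and 0.183 FPKM at stage A, 0.601 and 0.335 at stage PM and 0.429 and 0.278 at stage M. These values rest on an estimated 6.6 to 30 fragments per library, the stages overlapped, and differences between stages were not detectable at this depth. A transcript named Gm44732 overlaps 625 of its exon bases on the opposite strand.

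**Figure D3:**
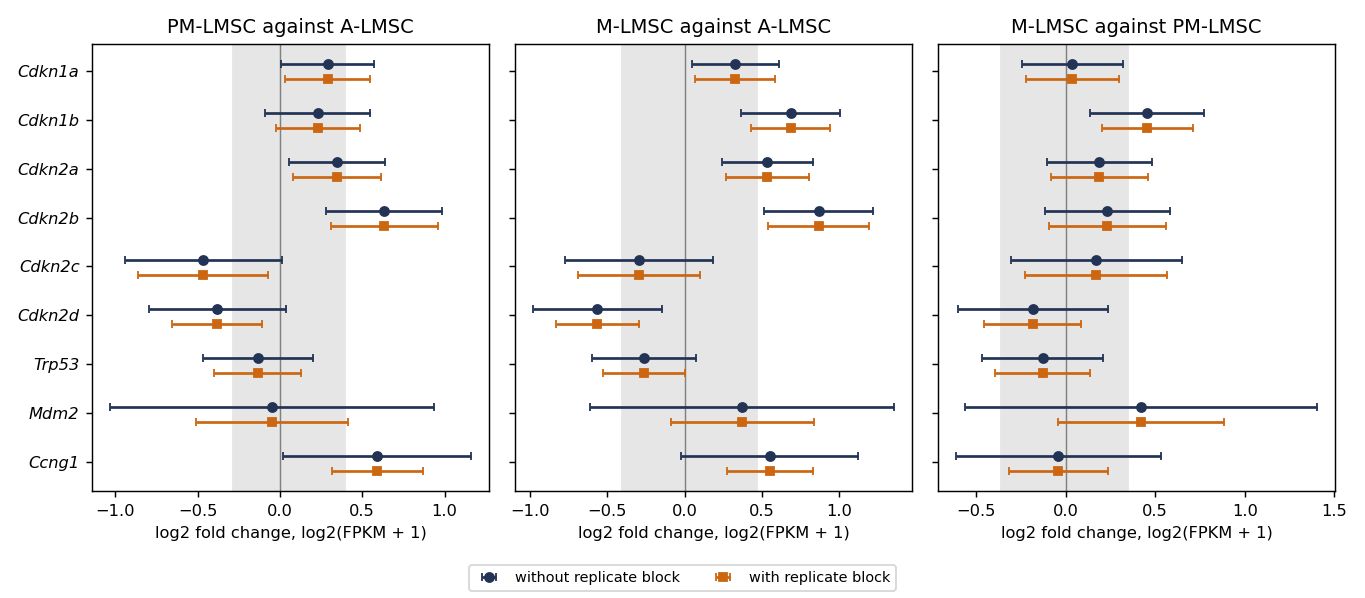
Log2 fold changes of the 9 tested genes, on the log2(FPKM + 1) scale, in 3 comparisons. Bars are 95% intervals from limma without (circles) and with (squares) the replicate block, and the grey band holds the middle 90% of all tested genes. For M-LMSCs against A-LMSCs the points of Cdkn2b, Cdkn1b, Ccng1 and Cdkn2a (0.87, 0.68, 0.55 and 0.54) lie right of the band and Cdkn2d (-0.56) left of it, and the block shortens the Mdm2 and Ccng1 bars.

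Trp53 (chromosome 11, 69580359 to 69591873, plus strand) was 16.7 FPKM in both libraries of stage A, 13.8 and 16.6 at stage PM and 12.5 and 15.2 at stage M. The later libraries were all below the A-LMSC libraries, the highest of them by a margin smaller than the spread within PM-LMSCs. The log2 fold change was -0.26 (95% interval -0.60 to 0.07) in M-LMSCs, with a limma adjusted p of 0.425. A processed pseudogene on chromosome 17, Trp53-ps, shares 353 bases at 97.7% identity and was at most 0.480 FPKM. Of the p53 relatives, Trp63 was listed at 0 in all libraries, as was mt-Co2, a mitochondrial gene that cells in general use.

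Among the p53 targets, Ccng1 (chromosome 11, 40748552 to 40755311, minus strand) was 106 and 88.2 FPKM at stage A, 169 and 126 at stage PM and 176 and 114 at stage M. All later libraries were above both A-LMSC libraries, and PM-LMSCs and M-LMSCs overlapped. The log2 fold change of both later stages against A-LMSCs was 0.57 (SE 0.21), with a limma adjusted p of 0.395 without the block and 0.0466 with it (up to 0.999 over 12 settings). Replicate 1 was above replicate 2 at every stage, as in 26% of tested genes, and the block changed its 95% interval from 0.08 to 1.07 to 0.33 to 0.81.

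Mdm2 (chromosome 10, 117688875 to 117710758, minus strand) was 16.1 and 12.6 FPKM at stage A, 21.5 and 8.65 at stage PM and 24.1 and 14.5 at stage M. It also had replicate 1 above replicate 2 at every stage, 2.48 times in PM-LMSCs, and all stages overlapped. The log2 fold change was -0.05 in PM-LMSCs (95% interval -1.03 to 0.93) and 0.37 in M-LMSCs (-0.61 to 1.36), with limma adjusted p of 0.994 and 0.680. Single libraries decided the sign for PM-LMSCs, which ran from -0.66 without PM-LMSC replicate 1 to 0.56 without PM-LMSC replicate 2. The ratio of Mdm2 to Trp53 was 0.962 and 0.752 in A-LMSCs, 1.55 and 0.522 in PM-LMSCs and 1.93 and 0.952 in M-LMSCs, again higher in replicate 1 throughout. Cdkn1c shared this order of the replicates, whereas Cdkn1b and Cdkn2d had replicate 1 below replicate 2 at every stage, as in 21.2% of tested genes.

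**Figure D4:**
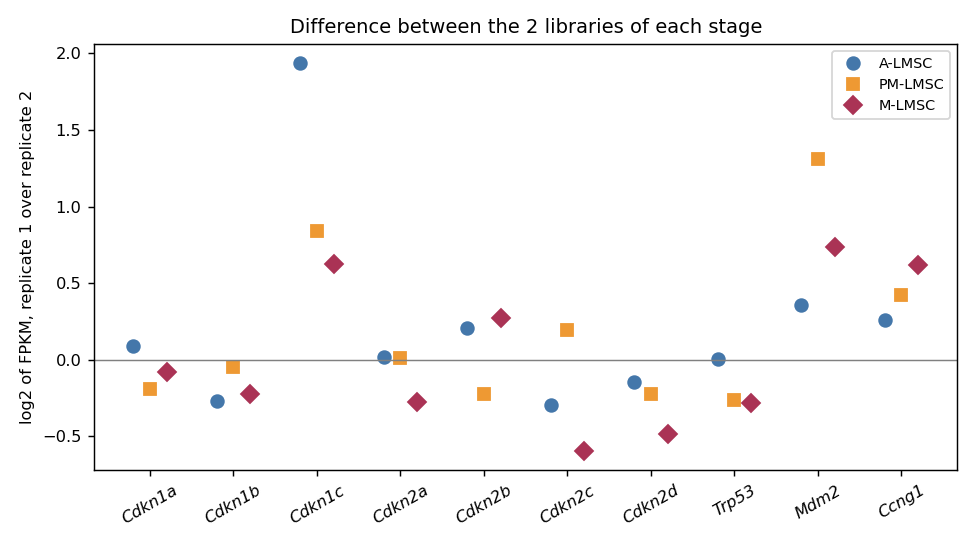
Log2 of the FPKM ratio of replicate 1 over replicate 2 for each of the 10 genes, with circles for A-LMSCs, squares for PM-LMSCs and diamonds for M-LMSCs, and 0 meaning equal values. Mdm2, Ccng1 and Cdkn1c lie above 0 at all 3 stages and Cdkn1b and Cdkn2d below, with ratios up to 2.48 for Mdm2 in PM-LMSCs.

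The other genes of the pathway were followed through lists chosen alongside the members. Of 12 regulators of p53, 6 were tested, and limma called 0 in every comparison, with or without the block. The backgrounds were 0.292% to 3.92% with it and 0.0292% to 0.126% without. At an unadjusted p under 0.05 without the block there were also 0, against 6.53% to 14.6% of all tested genes. With 6 genes and shares of this size, the zeros do not set these regulators apart. Mdm4, the MDM2 relative that restrains p53, was 0.509 to 0.750 FPKM and not tested. Ppm1d, a phosphatase that turns p53 signalling off, had a log2 fold change of -0.05 in M-LMSCs, and Kat5, an acetyltransferase acting on p53, one of -0.10.

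Of 30 other p53 target genes, 28 were tested. In both later stages against A-LMSCs, 23 of the 28 had a log2 fold change above 0, against 53.4% of all tested genes, with a list median of 0.19 against 0.02. limma called 0 of the 28 in each comparison without the block, against 0.0292% to 0.126% of all tested genes. In M-LMSCs 6 were at an unadjusted p under 0.05, all higher, against 7.68% of all tested genes. With the block limma called 2 in M-LMSCs, both higher (background 2.28%). Pmaip1 (the BH3-only protein Noxa) was 4.26 and 3.00 FPKM at stage A, 8.87 and 5.30 at stage PM and 7.15 and 4.49 at stage M, with a limma adjusted p of 0.0497 with the block and 0.416 without it in M-LMSCs. Btg2, an antiproliferative gene, was 38.4 and 45.4 FPKM at stage A against 54.6 and 61.6 at stage M, with a limma adjusted p of 0.0496 with the block and 0.228 without it. Eda2r, a death receptor of the TNF receptor family, had the largest fold change of the list in M-LMSCs, 0.67, with a limma adjusted p of 0.224. Gdf15, a secreted stress cytokine, had one of -0.0041 in M-LMSCs.

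Of 21 cyclins, CDKs and RB pathway genes, 19 were tested, and 13 of them were lower on average in M-LMSCs than in A-LMSCs (list median -0.32 against 0.03 for all tested genes). limma called 0 without the block (background 0.0681%). There 8 were lower and 1 higher at an unadjusted p under 0.05, against 6.96% and 7.68% of all tested genes. With the block limma called 1 higher (background 2.28%) and 3 lower (background 1.64%). Ccnd2, a D-type cyclin and so a partner of CDK4 and CDK6, went up with the block, at 39.9 and 35.1 FPKM at stage A, 68.3 and 60.9 at stage PM and 57.5 and 56.1 at stage M. Ccne1, Ccna2 and E2f1, which act at the start of and during DNA replication, went down with the block, E2f1 from 13.8 and 14.9 FPKM at stage A to 8.70 and 9.66 at stage M. Ccnd1 was 77.5 and 83.2 FPKM at stage A against 72.4 and 50.2 at stage M, and Rb1 was 1.67 and 1.33 FPKM at stage A against 3.03 and 1.88 at stage M, with limma adjusted p of 0.358 and 0.352.

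The proliferation list, of 22 genes that dividing cells use (replication helicase subunits, mitotic kinases and others, 3 of them also in the cyclin list), was tested in full. All 22 were below both A-LMSC libraries in both M-LMSC libraries, against 24.4% of all tested genes, and the median log2 fold change was -0.68. limma called 0 without the block, with 19 at an unadjusted p under 0.05 (background 6.96%), and 14 with it, all lower (background 1.64%). The summed level was 310 to 341 FPKM at stage A, 259 to 261 at stage PM and 162 to 209 at stage M, so its stages did not overlap. Foxm1, a transcription factor of mitotic genes, had the largest fold change, -1.07 (SE 0.13), with a limma adjusted p of 0.0720 without the block and 0.0171 with it, and was 9.44 and 9.92 FPKM at stage A, 7.17 and 6.24 at stage PM and 3.73 and 4.501 at stage M. In PM-LMSCs 20 of 22 were lower on average, and limma called 0 with and without the block, with 6 lower at an unadjusted p under 0.05 without it (background 2.61%). The study describes a growth assay in which cultured LMSCs of all stages had a similar capacity to proliferate, and these RNA values do not measure growth.

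**Figure D5:**
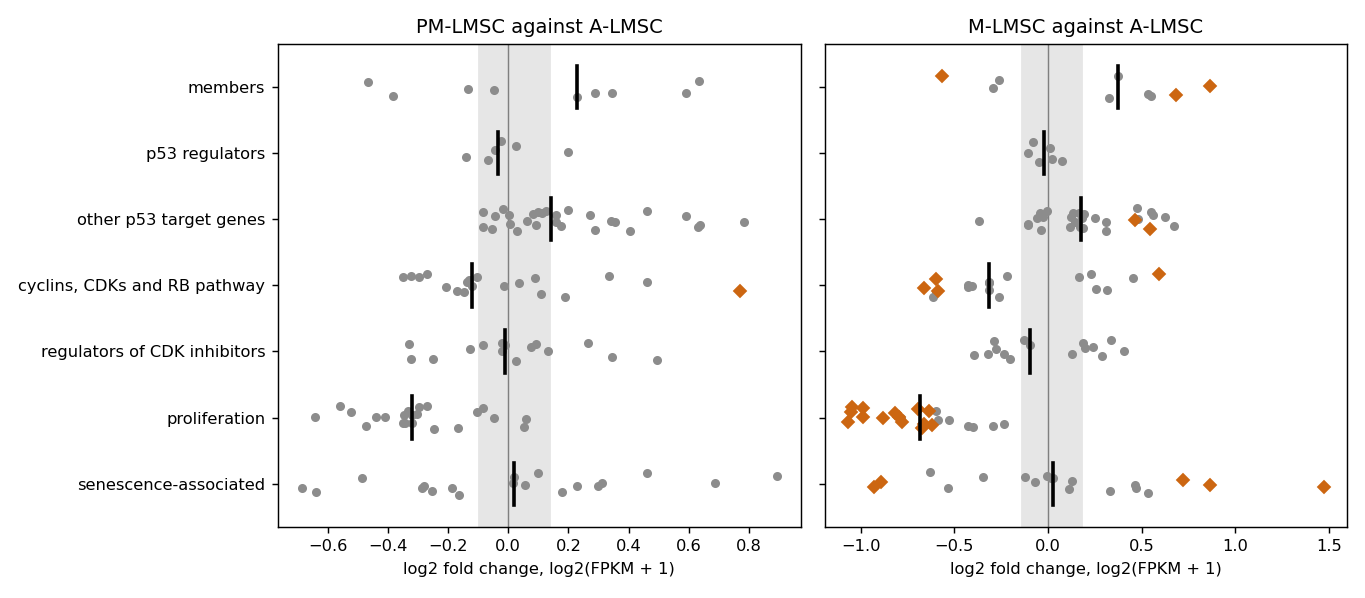
Log2 fold changes of the tested genes of 7 lists, on the log2(FPKM + 1) scale, for PM-LMSCs and M-LMSCs against A-LMSCs. Each point is a gene, orange diamonds passed limma's adjusted p under 0.05 with the replicate block, black bars are list medians and the grey band holds the middle 50% of all tested genes. In M-LMSCs the proliferation genes all lie left of 0 with 14 diamonds, and the senescence-associated genes lie on both sides.

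Of 26 genes known to change in senescent cells, many of them secreted factors, 19 were tested. Their median log2 fold change in M-LMSCs was 0.03, equal to that of all tested genes, and limma called 0 without the block, with 3 higher (background 7.68%) and 5 lower (background 6.96%) at an unadjusted p under 0.05. With the block it called 3 higher (background 2.28%) and 2 lower (background 1.64%). The chemokines Ccl2 and Ccl7 and the binding protein Igfbp3 were higher, and Igfbp3 was 50.6 and 51.3 FPKM at stage A against 96.0 and 213 at stage M. The collagenase Mmp13 and the chromatin protein Hmga1 were lower, and Hmga1, which is known to build up in senescent chromatin, was 12.1 and 11.3 FPKM at stage A against 5.25 and 6.12 at stage M. Lmnb1, a lamin lost in senescent cells, was 24.6 and 26.3 FPKM at stage A against 14.8 and 20.1 at stage M, with a limma adjusted p of 0.229 without and 0.101 with the block.

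Beside these M-LMSC values stand those of the haematopoietic markers, of which all 7 tested were higher in M-LMSCs, with 0 called by limma without the block (7 at an unadjusted p under 0.05, background 7.68%) and 6 called with it (background 2.28%). Of the 9 mesothelial markers, 8 were higher on average at each later stage, with a list median of 1.25 in PM-LMSCs and 1.10 in M-LMSCs, and in M-LMSCs limma with the block called 6 higher (background 2.28%) and Krt19 lower. The median log2 fold change of the 7 haematopoietic markers was 0.92, and Ccl2 and Ccl7 are made by myeloid cells as well as stromal cells. The part of these marker shifts in the values of the later stages was not tested.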

How the data were processed

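RNA-seq libraries of LMSCs, 2 per stage, were analyzed. The authors deposited FPKM values, 1 column per library, and per the submitters' processing notes the reads were aligned to mm10 with TopHat2 2.0.9, whereas the counter and annotation were not given in the sources used here. Only 50.4% to 52.1% of low values came within 0.05 of a whole fragment, so counts were not recovered and count models not used. Values were taken as log2(FPKM + 1) and fitted with limma 3.58.1 in R 4.3.3 (1 mean per stage, eBayes with trend), with Benjamini-Hochberg adjustment over 10279 genes and a threshold of 0.05. Fold changes on this scale understate changes of low genes. The script was tested on simulated data.

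The labels share only the replicate numbers 1 and 2 between stages. Deviations of same-numbered libraries correlated at 0.238, 0.307 and 0.491, but the labels do not say that these libraries are pairs. The main fit did not use the replicate number. A fit with the replicate block was an alternative and is given where it changed a call. The alternatives were a pseudocount of 0.1, no filter, quantile normalization, median centering, only the stages compared, the block and each library left out. Members and lists were chosen with earlier results of these data known. All 10 members are named, and of each list the called genes, the largest fold change and preset genes. Some preset genes are not reported here. Of the identifiers, 34267 were in GENCODE M21 (GRCm38, the assembly of mm10) and 478 were not. For 57 repeated gene names the first identifier was used. Near copies were searched with blastn 2.17.0 (at least 95% identity over 200 bases), and upstream sequences are RefSeq's (GRCm38.p6).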

Additional observations from a re-analysis of the deposited data

How the results depend on the processing

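With 2 libraries per stage and no counts, the number of calls moved more than the fold changes. The replicate block moved the genes called from 4 to 30 in PM-LMSCs against A-LMSCs, from 7 to 403 in M-LMSCs against A-LMSCs, from 3 to 43 in M-LMSCs against PM-LMSCs and from 13 to 211 in both later stages against A-LMSCs, and the members called from 0 to 3 in M-LMSCs and from 0 to 2 in both later stages. Without a filter, limma called 1, 3 and 0 genes in PM-LMSCs, M-LMSCs and both later stages against A-LMSCs, using only the stages compared gave 21 and 1 in the first pair, and median centering gave 7 in both later stages. Leaving out 1 library gave 1 to 28 (PM-LMSCs), 1 to 90 (M-LMSCs), 2 to 25 (M-LMSCs against PM-LMSCs) and 0 to 93 (both later stages), with the highest counts without an M-LMSC library, and the cause was not tested. The lone sample of a stage is then assumed to vary like the others. Members called stayed at 0 under all alternatives other than the block, and the count of members with all later libraries on one side of A-LMSCs was 7 to 8.

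Signs turned with 1 library left out, in each case without a call. In M-LMSCs against PM-LMSCs the log2 fold change then ran from -0.057 to 0.13 for Cdkn1a, -0.094 to 0.44 for Cdkn2c, -0.41 to 0.044 for Cdkn2d, -0.26 to 0.0039 for Trp53, -0.19 to 1.03 for Mdm2 and -0.35 to 0.27 for Ccng1. For Mdm2 it ran from -0.66 to 0.56 in PM-LMSCs against A-LMSCs and from -0.14 to 0.47 in both later stages. Among the other genes it ran, in M-LMSCs and in both later stages, from -0.15 to 0.053 and from -0.033 to 0.18 for Ppm1d and from -0.44 to 0.43 and from -0.17 to 0.26 for Gdf15, and from -0.088 to 0.72 for Cdk6 in M-LMSCs.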

Other observations

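Of 17 genes that control CDK inhibitors, 15 were tested, and limma called 0 in each comparison with or without the replicate block. The backgrounds were 0.292% to 3.92% of all tested genes with it and 0.0292% to 0.126% without. In M-LMSCs against A-LMSCs, 1 was higher (7.68% of all tested genes) and 2 lower (6.96%) at an unadjusted p under 0.05. Bmi1, the Polycomb protein known to repress Cdkn2a, was 3.77 and 3.02 FPKM at stage A, 5.57 and 3.21 at stage PM and 4.405 and 3.59 at stage M, with replicate 1 above replicate 2 at each stage. Ets1, a transcription factor known to activate Cdkn2a, was 1.49 and 2.29 FPKM at stage A, 2.98 and 2.31 at stage PM and 3.10 and 2.19 at stage M. Klf4, a transcription factor that acts on Cdkn1a, was 28.2 and 28.04 FPKM at stage A, 23.0 and 21.4 at stage PM and 23.0 and 22.6 at stage M, and its later libraries were all below both A-LMSC libraries.

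The genes whose log2 values followed Cdkn1a most closely over the 6 libraries were Ahdc1 (Pearson r 0.98), Mknk1 and Col4a2, out of 8323 genes compared, of which 17 had an r above 0.95. For Cdkn2a they were Ahr (r 0.99), Sft2d2 and Ppp1r3d, out of 6703, of which 39 had an r above 0.95. Col4a2, a chain of basement membrane collagen, was 184 and 172 FPKM at stage A, 247 and 274 at stage PM and 269 and 295 at stage M. Ahr, the receptor for dioxin-like ligands, was 1.51 and 1.61 FPKM at stage A, 2.63 and 2.55 at stage PM and 2.49 and 3.76 at stage M. These correlations are descriptions over 6 libraries that share their stages, picked as the highest of all genes compared.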
